A study of Panax japonicus with 5 samples.

Results

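The old rhizome of Panax japonicus, a ginseng relative whose underground stem stores triterpene saponins, was set against its young rhizome to see which transcripts differed between segments of different age, outside the saponin pathway. The unigenes compared were those with 50 or more counts in either rhizome library, 11206 of the 135235 unigenes in all, and 940 of them were listed under at least 1 enzyme in the KEGG enzyme table that accompanies the study. A unigene is here a gene of the Trinity assembly, and its count is the sum over its contigs. The rhizome_old library came from the sixth bud scar in the study's methods (its results text names the sixth and the seventh), and the rhizome_Y library from the first bud scar, the one nearest the stem. By the study's methods, both segments and the secRoot, flower and leaf tissues came from 1 plant. That plant was untreated, 7 years old, and grew outdoors at a university garden. Each tissue had 1 library, so the differences below have no replicate check and no p-value, and segment age cannot be told apart from anything else that differed between 2 pieces of 1 plant. The files hold no independent measure of the age of a segment, and the labels were taken as given.

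A Panax rhizome grows by adding a short segment at its stem end each season, and the shoot of that season leaves a scar. Young segments of a perennial underground stem still enlarge and lay down walls, while older segments mainly store starch, sugars and amino acids that feed new shoots. Assimilation of nitrate and sulfate runs through chains of reductases, and the nitrite and sulfite reductases of both chains need siroheme as a cofactor.

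The counts added up to 3382436 in rhizome_old and 2836971 in rhizome_Y, and the members took 88.6% of the counts of rhizome_old and 89.4% of those of rhizome_Y. The leaf library stood apart from the others: the same unigenes took 3.77% of its counts, against 81.5% in flower and 88.5% in secRoot, and 9651 of the 11206 had 3 or fewer counts in it. Leaf values are therefore given only where a result touches them. Whether the leaf library came from the same plant as the others was not tested. Leaf-type unigenes (50 or more counts in leaf and a level at least 20 times that in flower and in secRoot) took 0.343% of the counts in rhizome_old and 0.119% in rhizome_Y, and 6463 of the 10854 had no count in rhizome_old, against 8930 in rhizome_Y. Flower-type unigenes took 0.403% in rhizome_old and 0.517% in rhizome_Y, and root-type unigenes took 1.49% in rhizome_old and 1.60% in rhizome_Y.

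Levels below are counts per 1000000 counts of the library (CPM), and ratios are CPM in rhizome_old over CPM in rhizome_Y, so that values above 1 mean higher in rhizome_old, and each stands with its exact 95% interval. The intervals cover counting error only. Most unigenes had similar levels in the 2 segments: 88.4% lay within 2-fold, the middle of the distribution ran from -0.28 to 0.42 on the log2 scale (25th to 75th percentile), and the median log2 ratio was 0.09. A unigene was called where its ratio was past 2-fold and its interval left out 1. By this rule 605 unigenes, 5.4% of those compared, were higher in rhizome_old and 690, 6.16%, were lower. With TMM scaling, which lowered every log2 ratio by 0.13, the calls split into 431 higher and 898 lower, so the balance between the directions depended on the scaling. The called unigenes that were higher in rhizome_old took 4.35% of its counts and 1.63% of those of rhizome_Y, while those that were lower took 2.71% in rhizome_old and 7.97% in rhizome_Y.

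**Figure D1:**
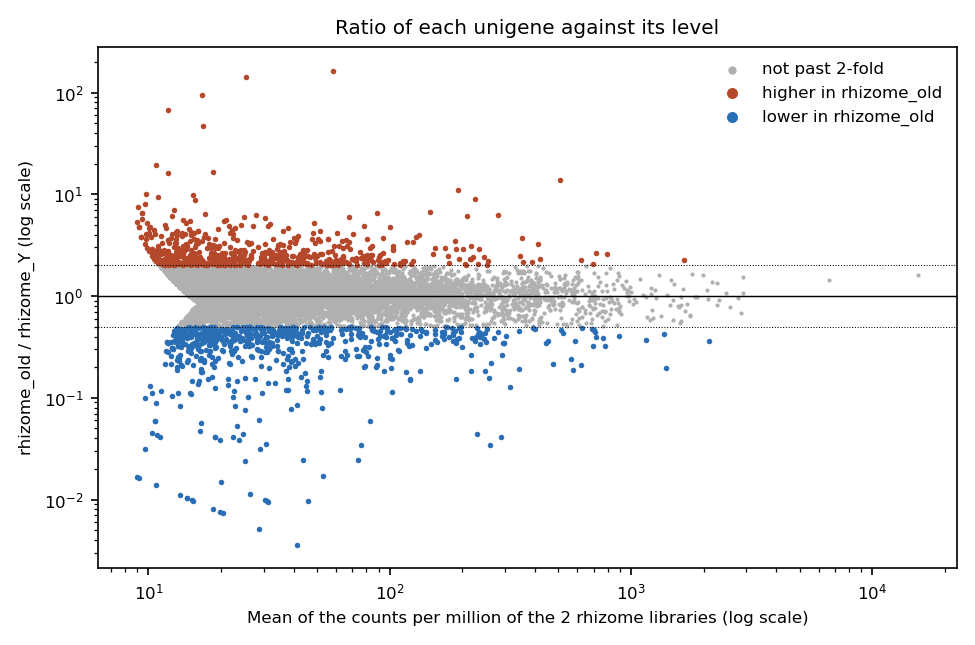
Ratio of CPM, rhizome_old over rhizome_Y, against the mean level of each unigene with a count in both libraries (both axes on log scales, 1 point per unigene, dotted lines at 2-fold). The cloud is centred near 1 at all levels, and most points farthest from 1 lie below it. Of all unigenes compared, 66 had a ratio of 1/10 or less and 11 a ratio of 10 or more. Of the 66, 13 had 0 counts in rhizome_old and are not drawn.

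The share of unigenes called changed little with abundance. It was 13.2% among the 4220 unigenes whose larger count was 50 to 100 and also 13.2% among the 537 with 1000 or more counts, with 10.2% to 10.7% between. Among the most abundant unigenes 45 were lower in rhizome_old and 26 higher, while among the least abundant 274 were lower and 284 higher. Large ratios were mostly in the lower direction: 267 unigenes were at least 3-fold lower in rhizome_old and 161 at least 3-fold higher. Of the 940 unigenes listed under an enzyme, 29 (3.09%) were higher and 51 (5.43%) lower, beside 5.4% and 6.16% over all unigenes, and their median log2 ratio was -0.06.

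Among enzyme unigenes with 100 or more counts in either library, the one with the largest ratio was TR65383|c0_g2, listed under ADP-glucose pyrophosphorylase, which makes the glucose donor of starch synthesis. It had 719 counts in rhizome_old and 150 in rhizome_Y, a ratio of 4.02 (3.37 to 4.83). In secRoot it had 84 counts and in flower 356, so its level was highest in the old rhizome of these 4 tissues. TR68102|c0_g2, a carbonic anhydrase, the enzyme that interconverts carbon dioxide and bicarbonate, had 225 counts in rhizome_old and 48 in rhizome_Y (3.93, 2.87 to 5.49). The other 3 carbonic anhydrase unigenes had ratios of 0.70 to 1.08. TR49119|c0_g1, listed under galactinol synthase, the first committed enzyme of raffinose-type sugars, had 176 counts in rhizome_old and 48 in rhizome_Y (3.08, 2.22 to 4.33). TR66733|c1_g1, a glycine hydroxymethyltransferase, which moves a carbon unit between serine and folate, had 518 counts in rhizome_old and 149 in rhizome_Y (2.92, 2.43 to 3.52). The other 3 glycine hydroxymethyltransferase unigenes went the other way, with ratios of 0.53, 0.60 and 0.65. Of the 315 enzymes with 200 or more counts and at least 2 unigenes compared, 38 (12.1%) had unigenes with intervals on both sides of 1, and 1 had calls in both directions.

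The next members of the higher set included several enzymes of sulfur, nitrogen and metal metabolism. TR58721|c0_g1, listed under both uroporphyrinogen-III methyltransferase and precorrin-2 dehydrogenase, which make siroheme, had 240 counts in rhizome_old and 82 in rhizome_Y (2.45, 1.90 to 3.19). TR57932|c0_g2, a glutamate-cysteine ligase that starts glutathione synthesis, had 140 counts in rhizome_old and 48 in rhizome_Y (2.45, 1.75 to 3.47). TR65366|c0_g1, a ferroxidase, a copper enzyme that oxidises iron, had 223 counts in rhizome_old and 78 in rhizome_Y (2.40, 1.85 to 3.14). TR54598|c0_g1, a nitrate reductase, had 137 counts in rhizome_old and 51 in rhizome_Y (2.25, 1.62 to 3.17), with 21 in secRoot and 5 in flower. TR51867|c0_g1, a phosphoenolpyruvate carboxykinase, which turns oxaloacetate into a precursor of sugars, had 447 counts in rhizome_old and 170 in rhizome_Y (2.21, 1.84 to 2.65). That unigene also had 6895 counts in leaf and 1078 in flower, and the part of leaf RNA in its ratio was not tested. The ratio was 3.56 for TR63217|c0_g1, whose listed name is prostaglandin-E2 9-reductase, an animal reductase whose role in plants is not known here. It was 2.66 for TR68293|c1_g1, an aminouracil reductase of riboflavin synthesis, and 2.42 for TR62593|c0_g5, listed under a ketoacyl-ACP reductase of fatty acid synthesis and an NADP+ alcohol dehydrogenase. The remaining 3 of the 15 largest ratios lay at 2.10 to 2.15: a phosphatidylinositol 4-kinase (TR62763|c0_g2), a unigene named after atrazine chlorohydrolase (TR67819|c1_g2) and an adenylyl-sulfate reductase (TR63468|c0_g2). Near-identical copies can share reads, and these 3 fell under 2-fold when counts were summed over the whole Trinity component (1.57, 1.97 and 1.94).

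**Figure D2:**
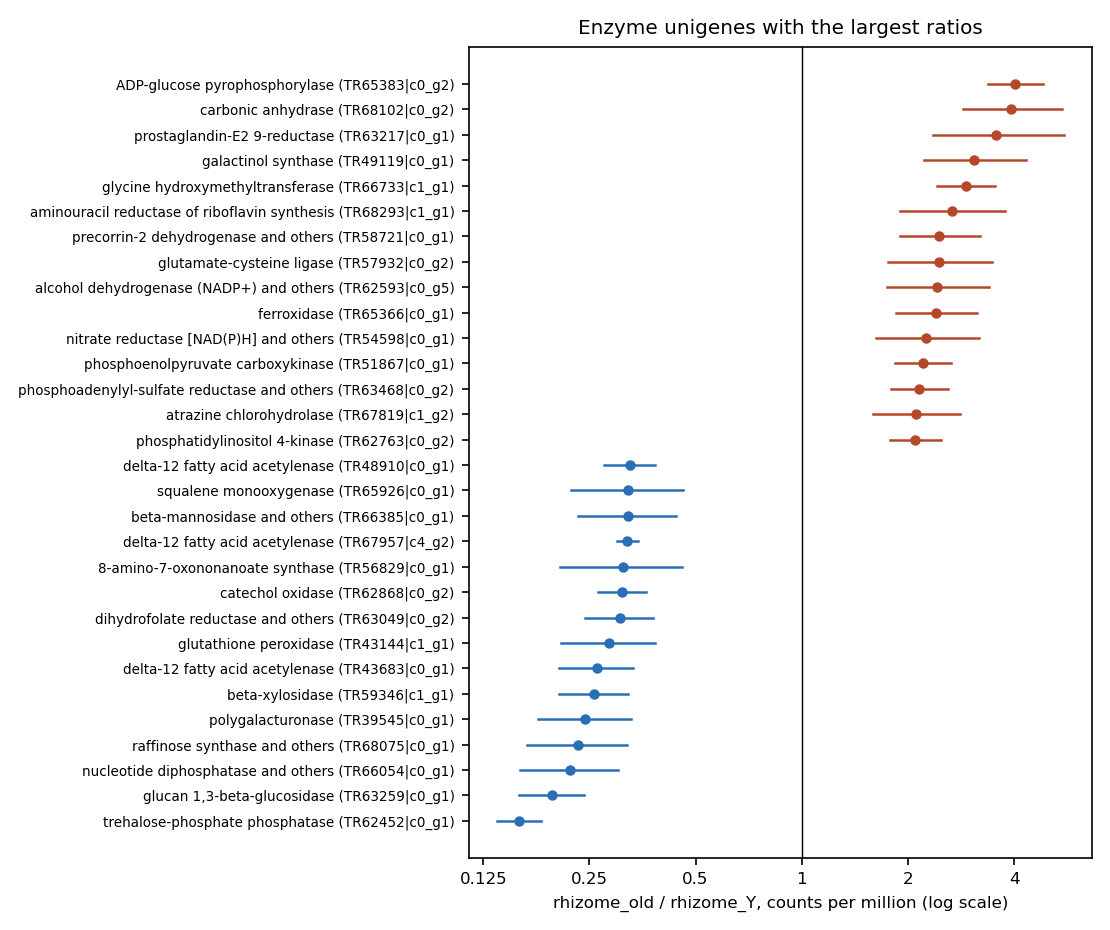
Ratio of CPM, rhizome_old over rhizome_Y (log scale), of the 15 enzyme unigenes with the largest and the 15 with the smallest ratio among those with 100 or more counts in either library. Points are ratios and lines exact 95% counting intervals. None of the 30 intervals reaches 1, which the choice of the most extreme ratios at these counts largely sets. The lowest ratio is that of a trehalose-phosphate phosphatase at 0.16.

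In the lower direction, the enzyme unigene with the smallest ratio was TR62452|c0_g1, a trehalose-phosphate phosphatase, which removes the phosphate of the sugar signal trehalose 6-phosphate. It had 238 counts in rhizome_old and 1263 in rhizome_Y, a ratio of 0.16 (0.14 to 0.18). The other 2 unigenes of the enzyme with 50 or more counts had ratios of 0.995 and 0.776. Summed over its unigenes the enzyme stood at 0.35 (0.33 to 0.39), and without TR62452|c0_g1, an alternative chosen after the data were seen, at 0.82 (0.72 to 0.92), so most of the lower sum came from that unigene. TR63259|c0_g1, a glucan 1,3-beta-glucosidase, had 112 counts in rhizome_old and 480 in rhizome_Y (0.20, 0.16 to 0.24). TR68075|c0_g1, listed under raffinose synthase and stachyose synthase, which extend galactinol-derived sugars, had 50 counts in rhizome_old and 181 in rhizome_Y (0.23, 0.17 to 0.32). Galactinol synthase and this raffinose synthase unigene thus differed in opposite directions between the segments. TR66054|c0_g1, listed under nucleotide diphosphatases, had 51 counts in rhizome_old and 194 in rhizome_Y (0.22, 0.16 to 0.30). TR63049|c0_g2, listed under dihydrofolate reductase and thymidylate synthase, a bifunctional protein in plants that supplies thymidylate for DNA, had 114 counts in rhizome_old and 314 in rhizome_Y (0.30, 0.24 to 0.38). The 2 DNA polymerase unigenes compared were not lower: TR69151|c0_g1 stood at 1.10 (0.87 to 1.40) and TR66761|c0_g1 at 1.44 (0.99 to 2.12). TR43144|c1_g1, a glutathione peroxidase that reduces peroxides, had 59 counts in rhizome_old and 174 in rhizome_Y (0.28, 0.21 to 0.38). TR62868|c0_g2, a catechol oxidase, the enzyme of tissue browning, had 227 counts in rhizome_old and 614 in rhizome_Y (0.31, 0.27 to 0.36), with 1062 in secRoot and 2 in flower. Ratios near 0.31 to 0.32 were also found for an 8-amino-7-oxononanoate synthase of biotin synthesis (TR56829|c0_g1) and for a unigene listed under beta-mannosidase and an amygdalin beta-glucosidase (TR66385|c0_g1). TR65926|c0_g1, a squalene monooxygenase of the saponin pathway, belongs to the same list and is not described further.

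Of the 15 lowest ratios 3 belonged to unigenes with 1 name, delta-12 fatty acid acetylenase, which puts a triple bond into linoleic acid on the way to the polyacetylenes known from the ginseng family. TR67957|c4_g2 had 1138 counts in rhizome_old and 2984 in rhizome_Y (0.32, 0.30 to 0.34). TR43683|c0_g1 had 93 counts in rhizome_old and 298 in rhizome_Y (0.26, 0.21 to 0.33), and TR48910|c0_g1 had 199 counts in rhizome_old and 512 in rhizome_Y (0.33, 0.28 to 0.38). Of the 9 acetylenase unigenes compared, 5 were called lower in rhizome_old and none higher, beside 6.16% lower and 5.4% higher over all unigenes. The 5 include the 3 above, which were picked for their low ratios, so the count is partly set by that choice. Ratios above 1 were found for 2 of the 9 (1.14 and 1.24). The most abundant, TR61572|c4_g1, had 2575 counts in rhizome_old and 2458 in rhizome_Y, a ratio of 0.88 (0.83 to 0.93). Summed over its 13 unigenes the enzyme had 4665 counts in rhizome_old and 7147 in rhizome_Y (0.55, 0.53 to 0.57). Acetylenases are close relatives of ordinary delta-12 desaturases, and the listed name was not checked against a sequence.

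Unigenes were next grouped by the enzymes of 17 pathways. The cell wall group had the most calls in 1 direction: of 36 unigenes 7 (19.4%) were lower in rhizome_old and 0 higher, beside 6.16% lower and 5.4% higher over all unigenes. Of the 36, 32 had ratios below 1, and the median log2 ratio was -0.44 beside 0.09 over all unigenes. With TMM scaling 11 of the 36 were lower, beside 8.01% of all unigenes. Of the 7, 3 were UDP-glucuronate epimerases, which make the galacturonate donor of pectin: TR62161|c3_g1 with 727 counts in rhizome_old and 1333 in rhizome_Y (0.46, 0.42 to 0.50), TR45831|c0_g1 with a ratio of 0.43 and TR37634|c0_g1 with 0.23. The others were TR39545|c0_g1, a polygalacturonase that cuts pectin (58 counts in rhizome_old, 200 in rhizome_Y, ratio 0.24), TR59346|c1_g1, a beta-xylosidase that trims xylan (103 counts in rhizome_old, 335 in rhizome_Y, ratio 0.26), TR54178|c0_g1, a pectin methylesterase (223 counts in rhizome_old, 446 in rhizome_Y, ratio 0.42), and TR6606|c0_g1, a cellulose synthase (22 counts in rhizome_old, 75 in rhizome_Y, ratio 0.25). The most abundant cellulose synthase, TR68313|c1_g1, had 1442 counts in rhizome_old and 2015 in rhizome_Y (0.60, 0.56 to 0.64), and the ratios of all 4 cellulose synthase unigenes lay from 0.25 to 0.65. The 7 thus included enzymes of wall assembly and enzymes of wall breakdown. UDP-xylose synthase, which makes the donor of xylan, had 3362 counts in rhizome_old and 2786 in rhizome_Y (1.01, 0.96 to 1.06, and 0.92 with TMM scaling).

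**Figure D3:**
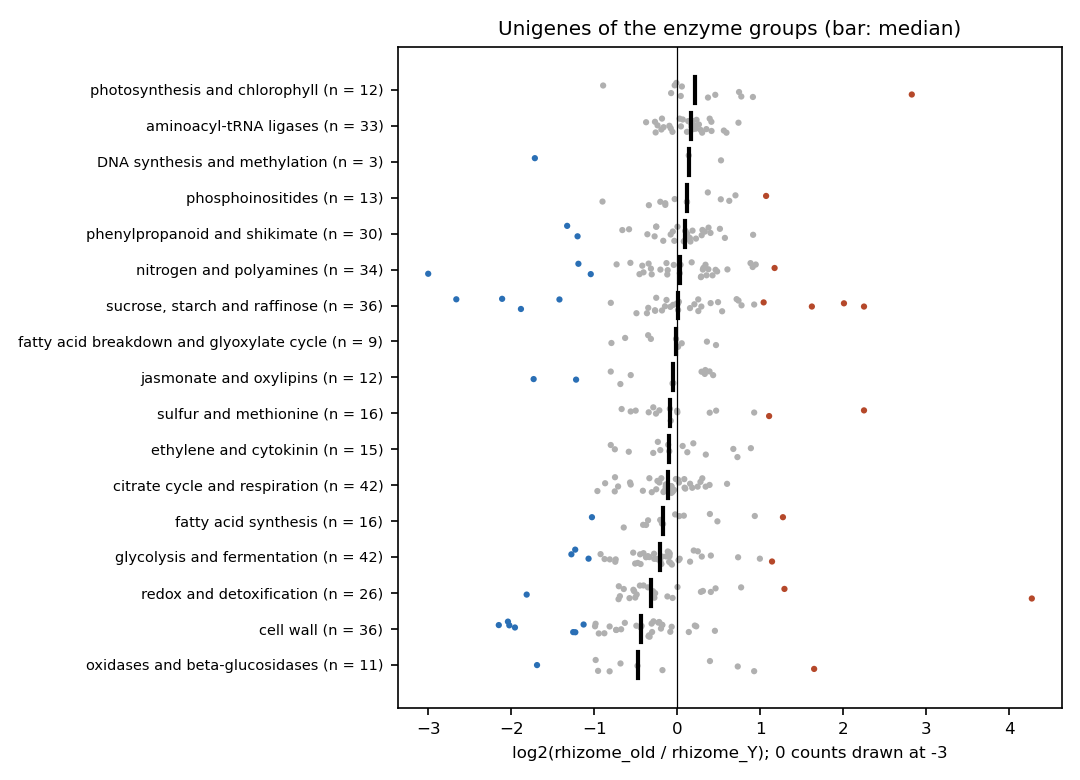
Log2 ratio, rhizome_old over rhizome_Y, of every unigene with 50 or more counts in either library that is listed under an enzyme of the 17 pathway groups (points, 1 per unigene, coloured where called; black bars are group medians). The cell wall group has 7 called points below 0 and 0 above, while the aminoacyl-tRNA ligases have 0 called points.

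In the group of redox and detoxification enzymes the median was -0.32, with 18 of 26 ratios below 1 and 1 unigene called lower (3.85%, beside 6.16% over all), the glutathione peroxidase above. Its most abundant unigene was TR55497|c2_g1, a catalase, which splits hydrogen peroxide, with 4206 counts in rhizome_old and 3669 in rhizome_Y (0.96). TR52802|c1_g2, also a glutathione peroxidase, followed with 2476 counts in rhizome_old and 2978 in rhizome_Y (0.70, 0.66 to 0.74). The same group held 2 unigenes called higher (7.69%, beside 5.4% over all), the glutamate-cysteine ligase above and TR45482|c0_g1, a glutathione transferase with 69 counts in rhizome_old and 3 in rhizome_Y (19.3, 6.33 to 95.8), which was named after its values were seen. In the group of oxidases and beta-glucosidases the median was -0.48 over 11 unigenes, with the catechol oxidase lower (3 lower with TMM scaling) and TR54720|c0_g1, an ascorbate oxidase, higher (71 counts in rhizome_old, 19 in rhizome_Y, ratio 3.13). In so small a group 1 call per direction is 9.09%, beside 6.16% lower and 5.4% higher over all unigenes.

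Most enzymes of central carbon metabolism differed by less than 2-fold. Of 42 unigenes of glycolysis and fermentation 32 had ratios below 1, with a median of -0.20, 1 (2.38%) called higher and 3 (7.14%) lower, close to the 6.16% lower over all unigenes. Phosphoglycerate kinase TR62799|c3_g1 had 3501 counts in rhizome_old and 4005 in rhizome_Y (0.73, 0.70 to 0.77), and pyruvate decarboxylase TR63128|c3_g1, which leads pyruvate into ethanol fermentation, had 7624 counts in rhizome_old and 8174 in rhizome_Y (0.78, 0.76 to 0.81). Another pyruvate decarboxylase unigene, TR61261|c0_g1, stood at 0.84 (0.80 to 0.89). TR69253|c0_g1, listed under pyruvate decarboxylase and oxalyl-CoA decarboxylase, went the other way, with 2922 counts in rhizome_old and 1230 in rhizome_Y (1.99, 1.86 to 2.13). Of 42 unigenes of the citrate cycle and respiration none was called, 29 had ratios below 1, and the lowest of the abundant ones was malate dehydrogenase TR58182|c1_g1, with 1246 counts in rhizome_old and 2036 in rhizome_Y (0.51, 0.48 to 0.55). The aminoacyl-tRNA ligases, which load amino acids for translation, lay slightly on the other side: 23 of 33 ratios were above 1, the median was 0.17 and 0 were called. Under TMM scaling the medians of these 3 groups were -0.34, -0.25 and 0.04, with 5 unigenes of glycolysis and fermentation called lower and 2 of the citrate cycle and respiration.

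The nitrogen and sulfur chains differed step by step. Nitrite reductase, which reduces nitrite to ammonium in plastids, had 741 counts in rhizome_old and 322 in rhizome_Y (1.93, 1.69 to 2.21), nearly all from 1 unigene that the table also lists under a bacterial type of the enzyme. Nitrate reductase, the step before it, had 2330 counts in rhizome_old and 1455 in rhizome_Y over its unigenes (1.34, 1.26 to 1.44), and 5 of the 6 members with 50 or more counts had ratios above 1. The main nitrate reductase unigene, TR67355|c2_g1, had 1520 counts in rhizome_old and 914 in rhizome_Y (1.39, 1.28 to 1.52). Glutamine synthetase, which takes up ammonium, and the glutamate synthase that uses its product had ratios below 1. NADH-dependent glutamate synthase had 1566 counts in rhizome_old and 1962 in rhizome_Y (0.67, 0.63 to 0.72). For glutamine synthetase there were 469 counts in rhizome_old and 499 in rhizome_Y (0.79, 0.69 to 0.90). Of the 499, 60 came from TR46476|c0_g1, which had 0 counts in rhizome_old, and without that unigene, left out after the data were seen, the ratio was 0.90 (0.79 to 1.02). Glutamate dehydrogenase, which can release ammonium, had 497 counts in rhizome_old and 284 in rhizome_Y (1.47, 1.27 to 1.70). The 2 glutamate decarboxylase unigenes, whose product is the signal and store GABA, were called lower, TR88412|c0_g1 at 0.49 and TR92973|c0_g1 at 0.44. In the whole nitrogen and polyamine group 1 of 34 unigenes (2.94%) was higher and 3 (8.82%) lower, beside 5.4% and 6.16% over all unigenes.

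In sulfate assimilation, adenylyl-sulfate reductase had 453 counts in rhizome_old and 185 in rhizome_Y (2.05, 1.73 to 2.45), and sulfite reductase, the next step, had 752 counts in rhizome_old and 453 in rhizome_Y (1.39, 1.24 to 1.57). ATP sulfurylase, the step that opens the chain, had 2606 counts in rhizome_old and 2278 in rhizome_Y (0.96, 0.91 to 1.02). Serine acetyltransferase, which supplies the carbon skeleton of cysteine, had 318 counts in rhizome_old and 325 in rhizome_Y (0.82, 0.70 to 0.96). The reductases of both chains, the siroheme enzymes and glutamate dehydrogenase thus had intervals above 1, and ATP sulfurylase, serine acetyltransferase, glutamine synthetase and glutamate synthase did not. Some of these sums rested mostly on 1 unigene each. For siroheme it was TR58721|c0_g1 (240 counts in rhizome_old, 82 in rhizome_Y). For adenylyl-sulfate reductase it was TR63468|c0_g2 (426 in rhizome_old, 166 in rhizome_Y), which fell under 2-fold by component sum (1.94) and with TMM scaling (1.96). Enzymes of the methyl cycle were abundant and lower or close to 1: adenosylhomocysteinase TR63903|c2_g1 had 7779 counts in rhizome_old and 9629 in rhizome_Y (0.68, 0.66 to 0.70), and methionine synthase TR67452|c1_g3 had 9127 counts in rhizome_old and 8086 in rhizome_Y (0.95, 0.92 to 0.98).

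**Figure D4:**
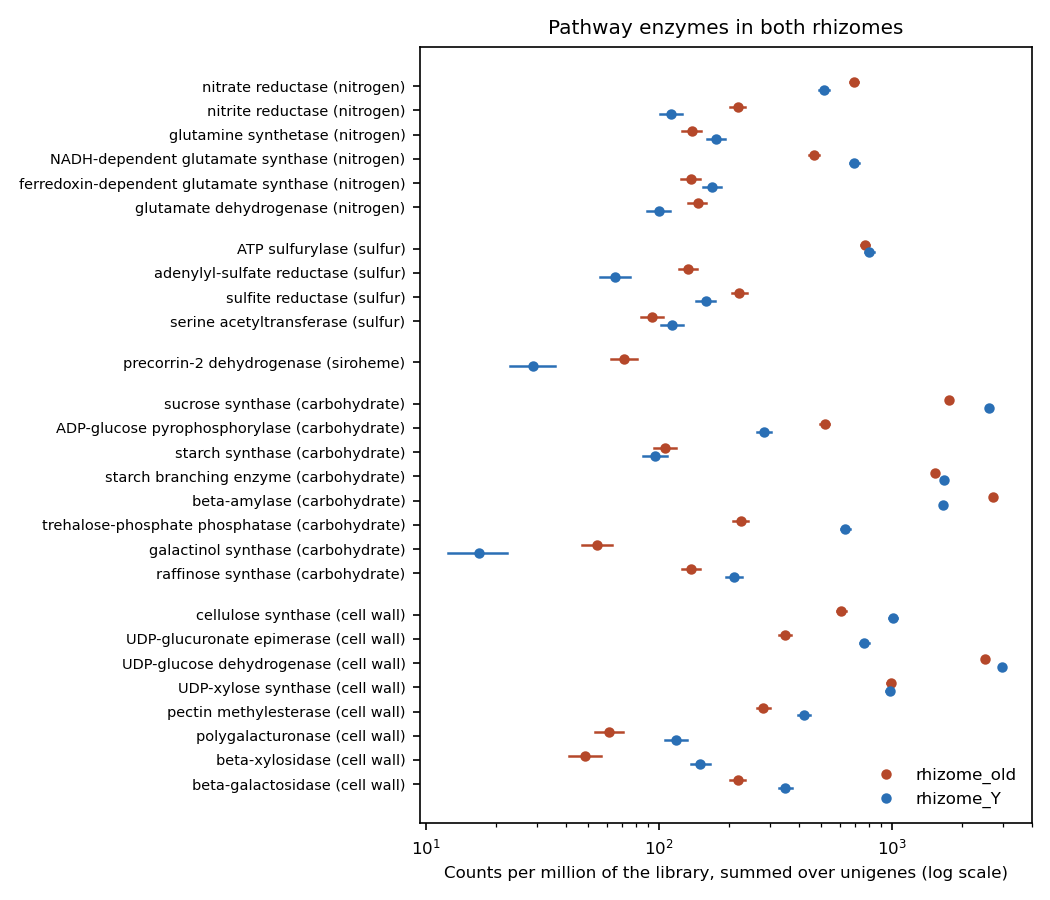
Level in CPM (log scale), summed over the unigenes of each enzyme, in rhizome_old (red, upper point of each pair) and rhizome_Y (blue, lower point), with exact 95% Poisson intervals. Nitrite reductase, adenylyl-sulfate reductase, precorrin-2 dehydrogenase, ADP-glucose pyrophosphorylase, beta-amylase and galactinol synthase lie to the right in rhizome_old, and cellulose synthase, UDP-glucuronate epimerase, polygalacturonase and beta-xylosidase lie to the left of their values in rhizome_Y.

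The sucrose, starch and raffinose group had calls on both sides, 4 higher and 4 lower of 36 (11.1% each, beside 5.4% higher and 6.16% lower over all unigenes), with a median log2 ratio of 0.01 beside 0.09. All 4 ADP-glucose pyrophosphorylase unigenes had ratios above 1, from 1.19 (TR53432|c0_g1, 622 counts in rhizome_old and 438 in rhizome_Y) to 4.75 (TR47400|c0_g1). TR47400|c0_g1 and TR50138|c1_g1 also belonged to the sulfur and methionine group. Summed, the enzyme had 1744 counts in rhizome_old and 806 in rhizome_Y (1.81, 1.67 to 1.98). Beta-amylase, which releases maltose from starch, had 9184 counts in rhizome_old and 4726 in rhizome_Y (1.63, 1.57 to 1.69), and its main unigene TR60064|c0_g1 had 7554 counts in rhizome_old and 3861 in rhizome_Y beside 139 in secRoot and 23 in flower. With TMM scaling the summed beta-amylase ratio was 1.49, under the 1.5-fold used below to call whole enzymes. Sucrose synthase, which splits sucrose for storage and walls, had 5971 counts in rhizome_old and 7460 in rhizome_Y (0.67, 0.65 to 0.69). Starch branching enzyme had 5202 counts in rhizome_old and 4759 in rhizome_Y (0.92, 0.88 to 0.95), so enzymes of starch synthesis differed among themselves. The other called members, named after their values were seen, were TR47400|c0_g1, listed under ADP-glucose pyrophosphorylase and ATP sulfurylase (51 counts in rhizome_old, 9 in rhizome_Y), a starch phosphorylase TR67317|c0_g1 (76 counts in rhizome_old, 31 in rhizome_Y, under 2-fold with TMM scaling), an alpha-amylase TR51702|c0_g1 (32 counts in rhizome_old, 99 in rhizome_Y) and a raffinose synthase TR61232|c0_g2 (37 counts in rhizome_old, 83 in rhizome_Y).

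The remaining groups held few calls, and their counts stand beside 5.4% higher and 6.16% lower over all unigenes. In the jasmonate and oxylipin group 2 of 12 unigenes (16.7%, beside 6.16% over all) were lower, a lipoxygenase TR51249|c0_g1 (23 counts in rhizome_old, 64 in rhizome_Y) and an allene oxide synthase TR59455|c1_g1 (84 counts in rhizome_old, 164 in rhizome_Y), and the summed lipoxygenases, which open the pathway, stood at 0.63 (0.58 to 0.69). In the phenylpropanoid and shikimate group 0 of 30 were higher and 2 lower (6.67%, near the share over all), while the summed 4-coumarate-CoA ligases had 3881 counts in rhizome_old and 1798 in rhizome_Y (1.81, 1.71 to 1.92), most of them on TR60317|c0_g2. In the fatty acid synthesis group an enoyl-ACP reductase, TR61732|c0_g1, was lower (245 counts in rhizome_old, 419 in rhizome_Y, ratio 0.49), beside the ketoacyl-ACP reductase above that was higher. Ethylene and cytokinin enzymes had 0 calls of 15, with an ACC oxidase, the last step of ethylene synthesis, at 0.59 (TR55401|c2_g1, 984 counts in rhizome_old and 1390 in rhizome_Y). Fatty acid breakdown and the glyoxylate cycle had 0 calls of 9. Among enzymes of photosynthesis and chlorophyll, 1 of 12 (8.33%, beside 5.4% over all) was called higher and 0 lower. It was a ribulose-bisphosphate carboxylase unigene, TR32787|c0_g1, with 76 counts in rhizome_old and 9 in rhizome_Y, and with 1681 in flower and 12 in leaf. Over the 94 unigenes of that list, 27 had no count in rhizome_old and 45 none in rhizome_Y, and the summed level was 1486 CPM in rhizome_old and 1062 in rhizome_Y, largely from protochlorophyllide reductase TR65098|c1_g1 (3352 counts in rhizome_old, 1679 in rhizome_Y). TR65098|c1_g1 had 5424 counts in secRoot and 4 in leaf, while the summed level of the list was 6288 CPM in leaf and 1575 in secRoot. Whether leaf RNA took part in these values was not tested.

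Over whole enzymes, summed across their unigenes, 539 had 200 or more counts in the 2 rhizomes, and those past 1.5-fold with an interval that left out 1 numbered 41 (7.61%) higher and 47 (8.72%) lower in rhizome_old. Many entries share unigenes. The 88 calls hold 80 distinct pairs of counts, and some of these pairs still share their main unigene. With TMM scaling 27 enzymes were higher and 74 lower. Outside the pathway groups, the largest ratios were those of nitrate reductase entries for other cofactors (2.66 and 2.81), which hold TR54598|c0_g1, and of the siroheme enzymes (2.47). They were followed by atrazine chlorohydrolase (2.10), homoserine O-succinyltransferase (2.06), sulfate reductase entries that hold TR63468|c0_g2 (2.05 and 2.03), and oxalyl-CoA decarboxylase, which removes carbon dioxide from oxalyl-CoA and had 2933 counts in rhizome_old and 1236 in rhizome_Y (1.99, 1.86 to 2.13). Nearly all of the oxalyl-CoA decarboxylase counts came from TR69253|c0_g1 (2922 in rhizome_old, 1230 in rhizome_Y). That unigene is also listed under pyruvate decarboxylase, in the glycolysis and fermentation group. On the lower side came dihydrofolate reductase (0.31), an amygdalin beta-glucosidase (0.36) and codeinone reductase (0.41, 0.36 to 0.47), an aldo-keto reductase name from poppy. Of 4 codeinone reductase unigenes 3 were called lower, beside 6.16% of all unigenes, in an enzyme picked for its low sum. Next came germacradienol synthase (0.44) and delta-cadinene synthase (0.46), sesquiterpene synthase entries that share TR65397|c2_g1 (207 counts in rhizome_old, 381 in rhizome_Y). Ratios of 0.46 to 0.54 were found for a bilirubin oxidase (0.46), an inositol trisphosphate kinase (0.46), stachyose synthase (0.49), ceramidase (0.53), and UTP-glucose-1-phosphate uridylyltransferase, which makes the UDP-glucose used for sucrose and cellulose, with 1619 counts in rhizome_old and 2509 in rhizome_Y (0.54, 0.51 to 0.58).

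Of the unigenes farthest from equal, 1 of the 66 with a ratio of 1/10 or less and 1 of the 11 with a ratio of 10 or more were listed under an enzyme, beside 8.39% of all unigenes compared. Together the 66 had 505 counts in rhizome_old and 12295 in rhizome_Y. The lowest were TR56539|c0_g1, with 0 counts in rhizome_old and 119 in rhizome_Y, and TR53388|c0_g1, with 0 counts in rhizome_old and 107 in rhizome_Y, and neither had a count in secRoot, flower or leaf. If the counts of 0 are taken as the 3 counts that a 0 allows, they were at least 47.3-fold and 42.5-fold lower in rhizome_old. That bound takes the counts of rhizome_Y as exact, and the exact 95% intervals of the ratios, which allow for error in both libraries, reached up to 0.0264 and 0.0294. The highest were TR56135|c1_g1, with 391 counts in rhizome_old and 2 in rhizome_Y (164, 45.1 to 1359), and TR55005|c0_g1, with 171 counts in rhizome_old and 1 in rhizome_Y (143, 25.4 to 5698). Both were also found in secRoot, with 311 counts of TR56135|c1_g1 and 25 of TR55005|c0_g1.

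A set of 35 unigenes was found nearly in rhizome_Y alone, with 50 or more counts there and 3 or fewer in each other library. They had 3360 counts in rhizome_Y, 0.118% of the library, against 34 in rhizome_old, 5 in secRoot, 2 in flower and 2 in leaf. Each had 50 to 258 counts in rhizome_Y, their median length was 894 bases, and 13 had no count in any other library. By the same rule 0 unigenes were found in rhizome_old alone, 6 in secRoot, 122 in flower and 10120 in leaf. The only member listed under an enzyme was TR46476|c0_g1, a glutamine synthetase with 0 counts in rhizome_old and 60 in rhizome_Y, named after its values were seen. The origin of these transcripts, from the plant or from another organism on or in the segment, was not tested. Without them 605 unigenes were higher and 655 lower in rhizome_old.

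**Figure D5:**
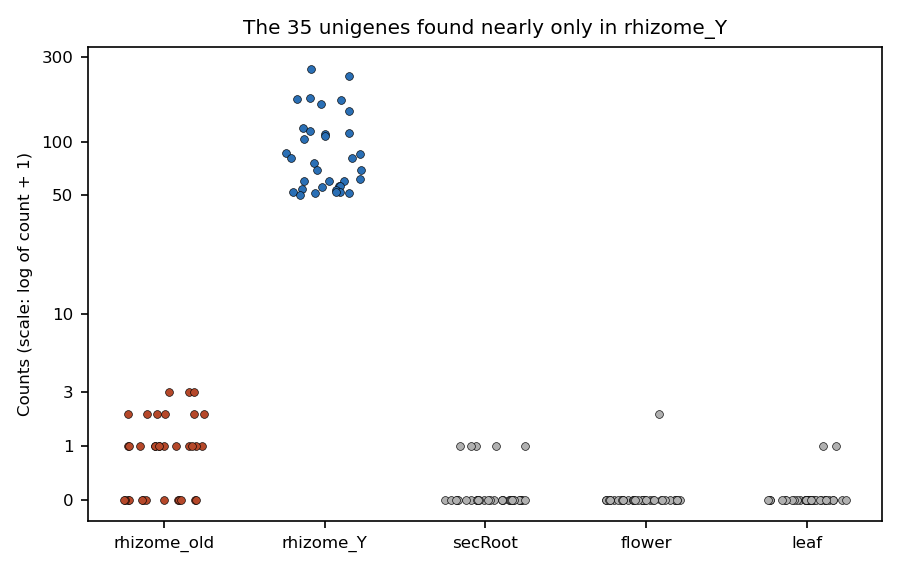
Counts in each of the 5 libraries (log of count + 1) of the 35 unigenes found nearly only in rhizome_Y, 1 point per unigene and library. All 35 have 50 to 258 counts in rhizome_Y, and none has more than 3 in any other library.

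The extremes of either direction were also looked up in the other tissues. Of the 66 unigenes at least 10-fold lower in rhizome_old, 40 had 3 or fewer counts in secRoot, and 39 had 3 or fewer in each of secRoot, flower and leaf. The 35 unigenes chosen above for such counts were all among the 66. Of the other 31, 5 had 3 or fewer counts in secRoot and 4 had so in each of the 3 tissues. Of the 11 at least 10-fold higher in rhizome_old, 0 were so low in secRoot, where the smallest count was 6. TR65520|c0_g1 and TR59810|c0_g1, the most abundant of these 11, were chosen after their values were seen. TR65520|c0_g1 had 3213 counts in rhizome_old and 194 in rhizome_Y (13.9, 12.01 to 16.1), and secRoot had 840. TR59810|c0_g1 had 1185 counts in rhizome_old and 91 in rhizome_Y (10.9, 8.82 to 13.7), and secRoot had 1219. Over all called unigenes, those higher in rhizome_old had a median of 31.6 CPM there, 12.3 in rhizome_Y, 19.9 in secRoot and 18.3 in flower. Those lower in rhizome_old had a median of 13.9 CPM there, 43.7 in rhizome_Y, 24.2 in secRoot and 20.2 in flower. Both sets were chosen by the ratio of the 2 rhizomes, which by itself sets the rhizome medians apart.

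Changes between the contigs of a unigene were rare. Of 6783 unigenes with 2 or more contigs and 50 or more counts in both libraries, 7 (0.103%) differed by 30 percentage points or more in the share of their main contig, with Wilson 95% intervals that did not overlap, and the median difference was 3.51 points. None of the 7 was listed under an enzyme, and 5 of them were within 2-fold in summed counts. Among enzyme unigenes the largest differences were smaller. For histidine-tRNA ligase TR65428|c0_g2 the main contig took 27.4% (19.0 to 37.7) of 84 counts in rhizome_old and 50.9% (37.9 to 63.9) of 53 in rhizome_Y. For the adenylyl-sulfate reductase TR63468|c0_g2 it took 72.8% (68.4 to 76.8) in rhizome_old and 51.8% (44.3 to 59.3) in rhizome_Y. For TR60108|c2_g2, a dihydroxybutanone-phosphate synthase of riboflavin synthesis, it took 29.4% in rhizome_old and 50.6% in rhizome_Y, and for TR55128|c1_g1, a hydroxy-acid oxidase, it took 20% in rhizome_old and 40.4% in rhizome_Y. For TR66351|c0_g2, a deaminase of riboflavin synthesis, it took 50.6% in rhizome_old and 31.7% in rhizome_Y, and there the intervals overlapped. Contigs of 1 Trinity gene can be splice forms, alleles or close copies, which cannot be told apart here.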

How the data were processed

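Poly(A) RNA of 5 tissues, by the study's methods from 1 plant, was sequenced, 1 library each. The authors assembled the reads of all tissues with Trinity v2.0.6 after trimming by Trimmomatic, then aligned the libraries one by one (Bowtie 2.0) and estimated counts with RSEM (the sources used here do not give the versions of Trimmomatic or RSEM). The deposited expected counts per contig, all whole numbers, were used as they are. The deposited FPKM and TPM, which the authors' RSEM run derived from the counts by effective contig length and depth, served only as alternatives. No reference genome was used.

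Contigs were summed per Trinity gene, and enzymes over all unigenes with a contig listed in the study's KEGG table, of which 752 enzymes were used and long contig lists hold only their first entries. Of the 539 enzymes with 200 or more counts, 250 had such a shortened list. Ratios were scaled by library total, with exact conditional 95% intervals (scipy 1.17.1, Python 3.11.15); edgeR 4.0.16 gave TMM factors only. With 1 library per side no test was made. A count of 0 was taken to allow up to 3 counts. The number of columns of per-sample values left unused was 0. The interval was run on simulated Poisson counts, the model it rests on, which hold no read-sharing error or spread between segments.

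Named were the 15 enzyme unigenes with the largest ratio in each direction at 100 or more counts, the called enzymes and up to 4 most abundant unigenes of each of 17 groups, 10 further enzymes and 2 unigenes without enzyme name per direction, and 5 contig shares. Called members of small groups were named after their values were seen. Members and lists were chosen with earlier results of these data known. In bulk tissue, fewer cells of a type and less RNA per cell cannot be told apart.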

Additional observations from a re-analysis of the deposited data

How the results depend on the processing

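No paired analysis was possible because each tissue had 1 library, and no library could be left out. Past 2-fold, 1373 unigenes were higher and 1236 lower in rhizome_old at a minimum of 20 counts, 321 and 416 at 100 counts, and 1926 and 1728 with no minimum (1 or more counts in both), where more or fewer unigenes were compared. With intervals wholly beyond 2-fold 187 were higher and 343 lower, and past 3-fold 161 and 267. Median-of-ratios scaling, FPKM, TPM, single contigs, Trinity components (chosen after seeing the data) and leaving out leaf-type unigenes kept the counts within 1.5 times. Of the enzymes, 27 were higher and 74 lower with TMM scaling, 30 were higher and 24 lower among the 289 with complete contig lists, which turns the balance of the directions, and 25 were higher at 500 or more counts. With TMM, 5 named unigenes fell under 2-fold: TR61317|c0_g1 and TR67317|c0_g1 (1.87 each), TR62763|c0_g2 (1.91), TR67819|c1_g2 (1.92) and TR63468|c0_g2 (1.96). Pectate lyase, lower by counts at 0.63, came to 1.001 as a ratio of summed TPM; the cause was not tested. No other called ratio by the naming rule changed direction under TMM, median-of-ratios scaling, FPKM, TPM or, for unigenes, component sums. Of those not called, 5 between 1.00477 and 1.09 turned below 1 with TMM, 2 of them also with median-of-ratios scaling, and TR68287|c0_g2 (1.28) turned to 0.94 by FPKM and TPM. Contig shares numbered 43 at 20 points and 3 at 100 counts. Counting error limits low unigenes, and spread between plants or segments was not measured.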
